A study of Mus musculus with 8 samples.

Results

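Collagens and the enzymes that modify, crosslink and process them were described across 8 Illumina arrays of mouse cells. The set was a list of 47 genes, of which 32 encode collagen chains and 15 encode modifying or processing proteins. A probe carrying the gene's symbol was found for 42 of the 47, among 19057 genes with a probe in all, and each gene was represented by its probe of highest mean. All cells came from bone marrow mesenchymal stem cells (MSCs) of adult C57BL/6J mice, which are marrow stromal cells able to become fat, cartilage or bone cells. There were 2 arrays of undifferentiated MSCs, with the titles d0 and p4. A single array stood for each differentiated type, namely adipocytes (d7), osteocytes (d21) and chondrocytes (d28), and for each reprogrammed type, namely adipocytes, osteocytes and chondrocytes (all p1). The series asked how cells committed to a lineage change on reprogramming. The labels do not give the meaning of d and p, the agents used to differentiate or reprogram the cells, or whether arrays came from separate cultures or animals.

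Collagens are triple-helical proteins of the extracellular matrix, and their families build different structures: banded fibrils (types I, III and V), the sheet of the basement membrane (type IV), beaded filaments (type VI) and other networks. In the endoplasmic reticulum prolyl and lysyl hydroxylases modify the chains and the chaperone HSP47 binds the folded helix. Outside the cell, proteases trim the propeptides and lysyl oxidases crosslink the fibrils. Type I collagen is the main protein of bone matrix, marrow stromal cells and osteoblasts make it in quantity, and mature fat cells are surrounded by a basement membrane rich in type IV collagen.

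Levels are given as the authors' deposited log2 values, whose column medians were all 3.90, and a value of 6 was taken as the level of a gene that could be followed. Of the 42 genes with a probe, 23 reached 6 on all 8 arrays, 29 on at least 2 arrays and 30 on at least 1. Differences are on the scale log2(2 to the deposited value, plus 16), which understates changes of dim genes, and a level on 1 probe is not set against that of another. Of 5 adipocyte markers 5 reached 6 on differentiated adipocytes and 0 to 2 on each other array. The array labelled differentiated chondrocytes carried all 4 osteoblast markers that had a probe at 6 or above, with 12.64 for Sp7, 11.70 for Ibsp, 10.98 for Bglap and 10.57 for Alpl. Sp7 was under 6 only in differentiated adipocytes (4.59). Of the cartilage markers on that array Sox9 stood at 10.73, Col2a1 at 9.15 and Col10a1 at 7.51, whereas Acan and Comp stayed under 6 on every array. Sox9 was also at 10.57 on MSC d0 and 10.18 in differentiated osteocytes, and Col2a1 was higher in reprogrammed cells (9.74 to 10.41). The adipocyte markers Adipoq (10.55) and Cidec (7.72) reached 6 in differentiated chondrocytes too. All 4 endothelial markers were under 6 everywhere, as were the macrophage genes Ptprc, Csf1r and Adgre1, while the macrophage gene Cd14 lay between 6.65 and 7.93 on all 8 arrays, with its highest value in differentiated osteocytes, and Lyz2 reached 6 on MSC d0 (6.76) and differentiated chondrocytes (8.0). Of 4 epithelial and 3 skeletal muscle markers only Cdh1 (6.30, differentiated osteocytes) and Des (6.49, differentiated adipocytes) reached 6 on any array. In bulk RNA fewer cells of a type and less RNA per cell cannot be told apart.

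Levels of these genes differed between the differentiated arrays. Each lineage has 1 such array with its own d number, so lineage, number and single array cannot be told apart. Differentiated adipocytes had the lowest level of the 8 arrays for 21 of 29 genes (72.4%), against 26.3% of all 8308 genes tested. They stood lower than every other array by a log2 of at least 1 for 12 of the 29, against 5.83% of all genes. Among the 12, Loxl3 was under 6 in differentiated adipocytes (2.93) and osteocytes (5.49), so that gap is not shown for it. The 21 also hold P4ha3, Col8a2 and Pcolce2, whose lowest and next value were both under 6. Differentiated chondrocytes had the highest level for 19 of 29 (65.5%), against 16.5% of all genes, and were highest by at least 1 for 6 (Col1a2, Col3a1, Col7a1, Col8a1, Col15a1 and Loxl3), against 1.97%. Differentiated chondrocytes were lowest for 0 of the 29. The genes that ran the other way were Col4a1 and Col4a2, which were highest in differentiated adipocytes.

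**Figure D1:**
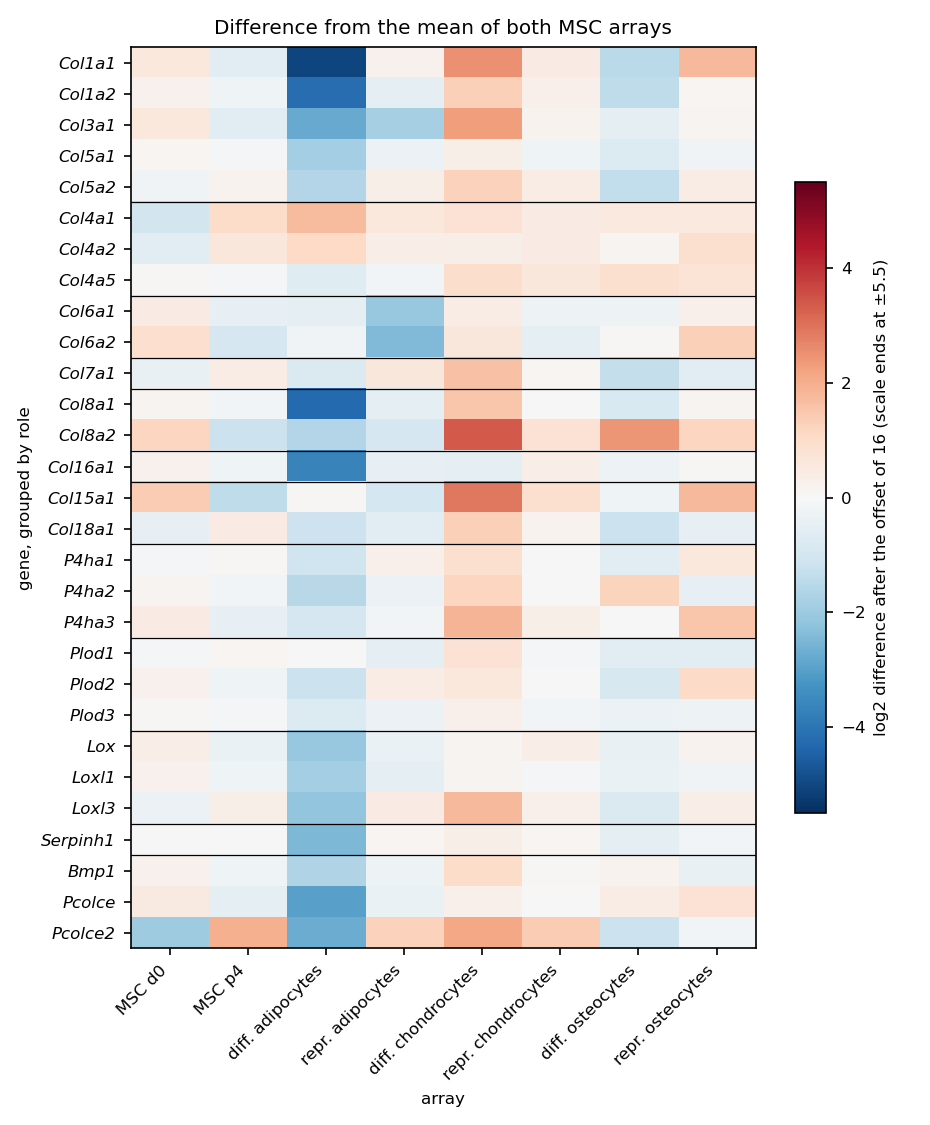
Log2 difference of each array (columns) from the mean of both MSC arrays for the 29 genes at the level on at least 2 arrays (rows, grouped by role), after the offset of 16, with red for higher and blue for lower. The column of differentiated adipocytes is mostly blue, down to -5.04 for Col1a1, and that of differentiated chondrocytes mostly red, up to 3.38 for Col8a2, while Col4a1 and Col4a2 are red in adipocytes.

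Among the fibrillar collagens, type I and type III showed the widest ranges, and all 5 genes at the level were lowest in differentiated adipocytes and highest in differentiated chondrocytes. Col1a1, the α1 chain of type I collagen, had deposited log2 values of 10.41 and 9.25 on MSC d0 and p4, of 3.62, 12.37 and 8.31 on differentiated adipocytes, chondrocytes and osteocytes, and of 10.09, 10.30 and 11.63 on the reprogrammed cells of those lineages. Col1a2, the partner chain of the same heterotrimer, read 12.11 and 11.64 on the MSC arrays, 7.60, 13.19 and 10.45 on the differentiated arrays and 11.36, 12.14 and 11.97 on the reprogrammed arrays, in the same order. Both chains were far lower in differentiated adipocytes than on any other array, and differentiated osteocytes came next. Against the MSC mean, differentiated adipocytes were lower by at least 11.6-fold for Col1a1, which was under 6 there, and differed by a log2 of -4.17 for Col1a2.

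Col3a1, the single chain of type III collagen, stood at 11.49 and 10.35 in MSCs, 8.06, 13.24 and 10.36 in differentiated cells and 9.06, 11.11 and 11.09 in reprogrammed cells. It was the fibrillar gene for which reprogrammed adipocytes also lay low, by a log2 of -1.83 against the MSC mean. Type V collagen, a minor component that helps set fibril diameter, was steadier. Col5a1 read 12.96 and 12.77 in MSCs, 11.01, 13.21 and 12.13 in differentiated and 12.53, 12.62 and 12.69 in reprogrammed cells. Col5a2 read 8.39 and 8.80 in MSCs, 6.86, 9.91 and 7.13 in differentiated and 8.93, 9.03 and 9.03 in reprogrammed cells. The 3 reprogrammed values of Col5a2 lay close to each other, and the 3 differentiated values spread on both sides of them. A second probe of Col5a2 read 7.65, 7.66 and 6.76 in reprogrammed adipocytes, chondrocytes and osteocytes, so that its values there were less alike. Col5a3, Col24a1 and Col27a1 were under 6 on all arrays.

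**Figure D2:**
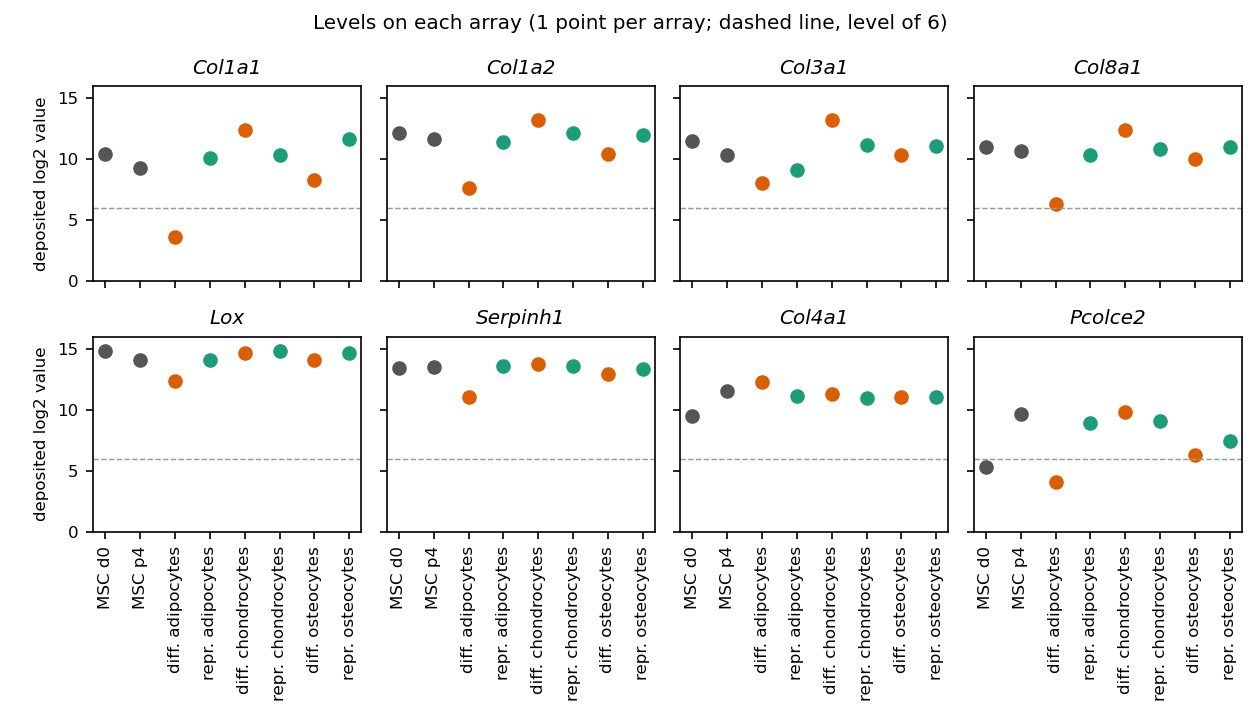
Deposited log2 value on each of the 8 arrays for 8 genes, with grey points for MSCs, orange for differentiated and green for reprogrammed cells, and a dashed line at the level of 6. Col1a1, Col1a2, Col3a1, Col8a1, Lox and Serpinh1 are lowest in differentiated adipocytes, Col4a1 is highest there, and Pcolce2 is 5.29 on MSC d0 and 9.67 on MSC p4.

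Type IV collagen departed from this order. Col4a1, a chain of the common basement membrane network, stood at 9.52 and 11.52 on MSC d0 and p4, at 12.28, 11.32 and 11.06 on differentiated adipocytes, chondrocytes and osteocytes, and at 11.10, 10.97 and 11.05 on the reprogrammed arrays. Col4a2, which assembles with it, stood at 9.33 and 10.56 in MSCs, 11.06, 10.26 and 10.09 in differentiated cells and 10.33, 10.43 and 10.82 in reprogrammed cells. For both genes differentiated adipocytes were highest and MSC d0 lowest. Differentiated adipocytes differed from the MSC mean by a log2 of 1.74 for Col4a1 and 1.09 for Col4a2, but from MSC p4 alone by only 0.76 and 0.49. Col4a5, a chain of another type IV network, did not share this pattern, with 8.99 and 8.83 in MSCs, 8.22, 9.89 and 9.82 in differentiated and 8.78, 9.55 and 9.67 in reprogrammed cells. Col4a6 reached 6 only in differentiated osteocytes, at 6.06, and Col4a3 and Col4a4 nowhere.

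Col4a1 and Col4a2 lie head to head on chromosome 8, with RefSeq starts (GRCm38.p6) 21 bases apart. Col4a1 starts at 11312826 on the minus strand and Col4a2 at 11312805 on the plus strand, so their annotated 5′ ends overlap. Their promoter windows of 250 bases before to 50 after the start share 78 bases. The windows are shown because these genes were high and low together, apart from the rest of the set. Each is written 5′ to 3′ on its gene's strand, and capitals mark the shared bases. The Col4a1 window is chr8:11312777-11313076 on the minus strand and that of Col4a2 is chr8:11312555-11312854 on the plus strand.
Col4a1: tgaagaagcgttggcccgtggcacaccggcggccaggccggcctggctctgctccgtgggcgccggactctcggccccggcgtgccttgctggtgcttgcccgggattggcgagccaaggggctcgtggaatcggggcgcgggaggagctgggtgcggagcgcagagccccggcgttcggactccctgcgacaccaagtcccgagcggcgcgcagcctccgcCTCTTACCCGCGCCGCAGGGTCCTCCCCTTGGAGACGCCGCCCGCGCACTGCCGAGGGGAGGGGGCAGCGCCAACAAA
Col4a2: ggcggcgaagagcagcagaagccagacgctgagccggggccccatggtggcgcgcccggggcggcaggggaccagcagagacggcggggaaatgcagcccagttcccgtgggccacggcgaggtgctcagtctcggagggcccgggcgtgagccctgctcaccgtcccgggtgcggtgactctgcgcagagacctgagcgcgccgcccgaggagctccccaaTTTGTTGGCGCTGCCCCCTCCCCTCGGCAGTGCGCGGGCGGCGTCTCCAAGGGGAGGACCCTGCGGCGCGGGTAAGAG
Windows of Col1a2 (chr6:4505368-4505667, plus strand) and Col3a1 (chr1:45311288-45311587, plus strand), fibrillar genes of the opposite pattern, are set beside them, with capitals on CCAAT and TATAAA on either strand.
Col1a2: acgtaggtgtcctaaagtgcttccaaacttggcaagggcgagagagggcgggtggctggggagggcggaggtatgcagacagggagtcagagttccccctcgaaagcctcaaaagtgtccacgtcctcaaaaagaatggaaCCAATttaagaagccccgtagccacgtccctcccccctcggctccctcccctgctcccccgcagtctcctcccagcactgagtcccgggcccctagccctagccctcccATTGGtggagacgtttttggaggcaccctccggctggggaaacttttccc
Col3a1: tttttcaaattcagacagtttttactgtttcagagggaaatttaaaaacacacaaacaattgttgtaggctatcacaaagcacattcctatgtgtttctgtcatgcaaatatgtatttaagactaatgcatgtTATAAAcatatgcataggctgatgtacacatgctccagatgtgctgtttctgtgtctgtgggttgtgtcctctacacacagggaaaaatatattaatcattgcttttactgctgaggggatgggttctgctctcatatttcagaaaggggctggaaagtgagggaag
Letters were searched on both strands. CCAAT occurs 1 time in the Col4a1 window, 1 time in that of Col4a2, 2 times in the Col1a2 window and 0 times in that of Col3a1, which has TATAAA 1 time. The letters of the GC box, GGGCGG, occur 1 time in the Col4a1 window, 3 times in that of Col4a2, 2 times in that of Col1a2 and 0 times in that of Col3a1. The motif CCAAT is held by 37.4% of all 32851 windows in the table and by 29.7% of the 37 windows of 35 genes of the list. For GGGCGG the shares were 35.7% of all windows and 70.3% of those of the list. For TATAAA they were 13.6% and 13.5%. A match describes the sequence only.

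Type VI collagen, whose chains form beaded filaments around cells, had its low point elsewhere. Col6a1 stood at 13.95 and 13.02 in MSCs, 12.94, 13.90 and 13.19 in differentiated adipocytes, chondrocytes and osteocytes and 11.38, 13.21 and 13.75 in the reprogrammed cells. Col6a2 stood at 11.60 and 9.72 in MSCs, 10.48, 11.30 and 10.73 in differentiated and 8.17, 10.19 and 11.97 in reprogrammed cells. Reprogrammed adipocytes were lowest for both, by a log2 of 1.55 and 1.50 to the next array. The further probes showed the same: a second probe of Col6a1 was lowest there at 10.50, another at 5.07, and a second probe of Col6a2 at 5.91.

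Type VIII collagen, a short-chain network collagen, held some of the widest ranges. Col8a1 read 11.00 and 10.67 in MSCs, 6.28, 12.37 and 9.99 in differentiated adipocytes, chondrocytes and osteocytes and 10.31, 10.82 and 10.98 in reprogrammed cells, and so followed type I collagen. Col8a2 read 7.84 and 5.02 in MSCs, 4.29, 10.13 and 9.15 in differentiated and 5.38, 7.44 and 7.88 in reprogrammed cells. Its high arrays were differentiated chondrocytes and osteocytes, and its low ones included MSC p4 and both adipocyte arrays. Col16a1, a fibril-associated collagen, was nearly level outside differentiated adipocytes, with 11.52 and 11.07 in MSCs, 7.49, 10.78 and 11.03 in differentiated and 10.85, 11.68 and 11.38 in reprogrammed cells. Col7a1, the anchoring fibril collagen, read 7.27 and 8.19 in MSCs, 6.88, 9.44 and 6.23 in differentiated and 8.38, 7.87 and 7.04 in reprogrammed cells, with its lowest value in differentiated osteocytes.

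The multiplexins, basement membrane collagens with interrupted helices, were split. Col15a1 stood at 7.85 and 4.31 on MSC d0 and p4, 6.35, 9.44 and 6.01 in differentiated and 5.01, 7.28 and 8.26 in reprogrammed cells. Col18a1, whose C-terminal fragment is endostatin, stood at 7.32 and 8.29 in MSCs, 6.57, 9.18 and 6.51 in differentiated and 7.19, 8.02 and 7.34 in reprogrammed cells. Differentiated chondrocytes were highest for both, and MSC p4 was lowest for Col15a1 and among the higher arrays for Col18a1. A further 12 collagens were under 6 on all arrays, with maxima from 2.93 for the transmembrane collagen Col13a1 to 5.72 for Col27a1. They were Col4a3, Col4a4, Col5a3, Col9a2, Col9a3, Col13a1, Col14a1, Col17a1, Col23a1, Col24a1, Col25a1 and Col27a1. Col6a3, Col12a1, Col20a1, Loxl2 and Adamts2 were not analysed here, since no probe carried their symbols.

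Of the 13 modifying and processing genes at the level, 12 were lowest in differentiated adipocytes, all but Plod1. For P4ha3, Loxl3 and Pcolce2 the lowest and next value were both under 6. P4ha1, P4ha2 and P4ha3 are catalytic subunits of prolyl 4-hydroxylase, whose product stabilises the helix. P4ha1 read 9.00 and 9.10 in MSCs, 7.89, 9.96 and 8.43 in differentiated adipocytes, chondrocytes and osteocytes and 9.35, 9.03 and 9.65 in reprogrammed cells. P4ha2 read 10.79 and 10.48 in MSCs, 9.08, 11.83 and 11.85 in differentiated and 10.33, 10.61 and 10.20 in reprogrammed cells. It was the only gene of the 29 that was highest in differentiated osteocytes, but by a log2 of only 0.02 over differentiated chondrocytes. A second probe of P4ha2 had the reverse order, with 10.89 in differentiated chondrocytes and 10.85 in differentiated osteocytes. P4ha3 reached 6 in differentiated chondrocytes, at 7.41, and in reprogrammed osteocytes, at 7.02, and lay between 3.42 and 5.76 elsewhere.

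Plod1, Plod2 and Plod3 encode lysyl hydroxylases, and Plod2 acts on the telopeptides that enter crosslinks. Plod2 stood at 10.59 and 10.09 in MSCs, 9.13, 10.92 and 9.42 in differentiated and 10.73, 10.32 and 11.42 in reprogrammed cells. Reprogrammed osteocytes were highest, and differentiated adipocytes and osteocytes were the low arrays. Plod3 ranged only from 11.59 in differentiated adipocytes to 12.63 in differentiated chondrocytes, but its second probe, at 8.53 in differentiated adipocytes and between 6.02 and 6.82 elsewhere, ran the opposite way. Plod1 ranged from 6.42 in reprogrammed osteocytes to 7.92 in differentiated chondrocytes.

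Lox and Loxl1, lysyl oxidases that crosslink collagen and elastin, were bright on every array and lowest in differentiated adipocytes. Lox read 14.84 and 14.13 in MSCs, 12.40, 14.65 and 14.08 in differentiated and 14.10, 14.85 and 14.69 in reprogrammed cells. Loxl1 read 14.05 and 13.59 in MSCs, 11.96, 13.97 and 13.44 in differentiated and 13.31, 13.69 and 13.64 in reprogrammed cells. Loxl3 lay at 6.11 and 6.88 in MSCs, 2.93, 8.44 and 5.49 in differentiated and 7.02, 6.83 and 6.95 in reprogrammed cells. The 3 reprogrammed values of Loxl3 were nearly equal, whereas the differentiated values bracketed all the others.

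Serpinh1, which encodes HSP47, stood at 13.46 and 13.51 in MSCs, 11.02, 13.80 and 12.95 in differentiated and 13.61, 13.58 and 13.32 in reprogrammed cells. Outside differentiated adipocytes its values spanned less than a log2 of 1 on this probe, while a second probe ran there from 7.80 in differentiated osteocytes to 10.16 in reprogrammed adipocytes. The difference between reprogrammed and differentiated cells was 0.91 on the first probe and 1.53 with the mean of all probes, neither past the threshold. On the second probe every array with p in the title, MSC p4 included, lay at 9.87 to 10.16. Those with d in the title lay at 6.27 to 9.10, with MSC d0 at 8.53. The part of the title letter in the difference of 1.53 was not tested. Bmp1, the protease that removes the C-terminal propeptide, read 11.49 and 11.03 in MSCs, 9.59, 12.25 and 11.45 in differentiated and 10.98, 11.34 and 10.87 in reprogrammed cells. Pcolce, which enhances that cleavage, read 13.25 and 12.22 in MSCs, 9.72, 13.02 and 13.16 in differentiated and 12.38, 12.75 and 13.52 in reprogrammed cells. Both were lowest in differentiated adipocytes. Pcolce2, its paralog, stood at 5.29 on MSC d0 and 9.67 on MSC p4, at 4.06, 9.86 and 6.30 in differentiated and at 8.94, 9.11 and 7.47 in reprogrammed cells.

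Between whole states no gene of the set passed the test. In the comparison of the 3 reprogrammed with the 3 differentiated arrays, 0 of 29 passed limma's test at an adjusted p of 0.05, against 54 of 8308 genes (0.65%), and 0 reached an unadjusted p under 0.05, against 22.6% of all genes. None of the 29 had reprogrammed arrays all above or all below the differentiated ones, where 13.7% of all genes did so upward and 16.2% downward. Differentiated against MSC arrays gave 0 of 29 genes called, against 5 genes in all (0.0602%), and reprogrammed against MSC arrays 0 of 29, against 0 genes in all (0.0%). Unadjusted p-values under 0.05 were found for 0 of the 29 in both, against 10.4% and 0.325% of all genes. Median log2 differences of the 29 were 0.24 for reprogrammed minus differentiated, -0.32 for differentiated minus MSC and 0.03 for reprogrammed minus MSC, beside medians of -0.04, -0.0035 and -0.04 over all genes. These comparisons share arrays, and as lineages stand for replicates, each p-value speaks of the spread among these 8 arrays alone. That spread holds the differences between lineages and may be partly technical.

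Col1a1 had the largest difference between reprogrammed and differentiated cells, with means of 10.69 ± 0.83 and 8.52 ± 3.78 (SD, n = 3 arrays each, offset scale). The log2 difference was 2.16 (SE 1.62, limma adjusted p = 0.455). Col16a1 differed by 1.50 (SE 0.83, limma adjusted p = 0.324), Pcolce2 by 1.42, Col1a2 by 1.37 and Col8a1 by 1.07. Plod2 had the lowest p of the set in this comparison, with a difference of 0.98 (SE 0.50, limma adjusted p = 0.283). At the other end Col8a2 differed by -1.04, Col6a2 by -0.71, Col6a1 by -0.56, P4ha2 by -0.55 and Col4a1 by -0.51, none past the threshold. All reprogrammed arrays have p in the title and all differentiated arrays d, and state and array set overlap only in that each set holds 1 MSC array. When array set was added as a block, the sign turned for many of the genes. Among those named above it turned for Col8a2 (to 1.30), Col6a2 (1.15), Col6a1 (0.37) and Pcolce2 (-2.48). It also turned for Col15a1 (to 2.43), Col3a1 (0.98), Bmp1 (0.42), Col4a2 (-1.15), Col18a1 (-0.85) and Col7a1 (-0.66). The median of the 29 became 0.69. Without differentiated adipocytes the difference was 0.31 for Col1a1, 0.39 for Col16a1, 0.36 for Pcolce2, 0.0010 for Col1a2 and -0.47 for Col8a1. P4ha2 was then called as lower in reprogrammed cells, among 209 of 8308 genes called in all. It read 10.20 to 10.61 there, against 11.83 and 11.85 in differentiated chondrocytes and osteocytes. Without differentiated chondrocytes the difference was 4.09 for Col1a1, 2.74 for Col1a2, 2.43 for Col8a1 and 2.78 for Pcolce2. Leaving out that array brought a call for Col5a2 (1.87, limma adjusted p = 0.0347), among 37 of 8308 genes called in all.

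Between differentiated and MSC arrays the lowest differences were those of Col16a1 (-1.49), Col1a2 (-1.43), Col1a1 (-1.33), Col8a1 (-1.20) and Serpinh1 (-0.89). The highest were Col8a2 (1.39), Col4a1 (1.02), Col15a1 (0.92), Col4a2 (0.51) and Col4a5 (0.39), and the lowest limma adjusted p of the set was 0.586, that of Col4a1. Without differentiated adipocytes Col1a1 turned to 0.52 and Col8a1 to 0.35. Between reprogrammed and MSC arrays all 29 lay between -0.71 for Col6a1 and 0.84 for Pcolce2, followed by Col1a1 at 0.83, and every limma adjusted p was 0.9997 or higher.

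For most of these genes the lineages lay farther apart in the differentiated than in the reprogrammed state. The SD over the 3 differentiated arrays exceeded that over the 3 reprogrammed arrays for 27 of 29 genes, against 70.1% of all genes, and was over 2 times as large for 22 of 29, against 42.2%. The median SD of the 29 was 1.42 over differentiated and 0.41 over reprogrammed arrays, beside 0.43 and 0.26 for all genes. Col5a2 had SDs of 1.60 and 0.06, Loxl3 of 2.01 and 0.08, Serpinh1 of 1.42 and 0.16 and Col1a2 of 2.74 and 0.41. The SD of 0.06 for Col5a2 belongs to the shown probe, and a second probe ran from 6.76 to 7.66 in reprogrammed cells. The exceptions were the type VI genes, Col6a1 with 0.50 and 1.24 and Col6a2 with 0.41 and 1.86. The count was 23 without the adipocyte lineage (57.4% of all genes), 22 without chondrocytes (61.1%) and 27 without osteocytes (73.8%), alternatives added after the data were seen. No test was made of this difference in spread, and the part of the array set in it was not tested.

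**Figure D3:**
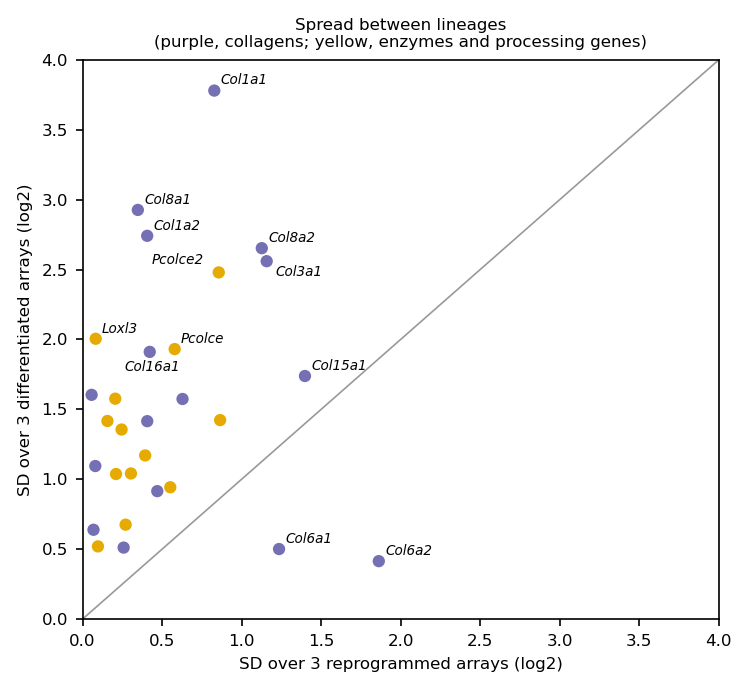
SD over the 3 differentiated arrays (vertical) against SD over the 3 reprogrammed arrays (horizontal) for each of the 29 genes, both in log2 after the offset, with the line of equal SD. The points lie above the line for 27 genes, and Col6a1 and Col6a2 lie below it.

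Array by array, 30 genes were set against both MSC arrays, with a gene counted where it was at least 2-fold apart from each of them. No test applies to 1 array. In differentiated adipocytes 0 genes were higher and 15 lower, against 9.27% and 10.3% of 9033 genes, with a median of -1.57 in log2, or -1.15 where genes under the level are set to their bound. The 15 were the 5 fibrillar genes, Col8a1, Col16a1, P4ha1, P4ha2, Lox, Loxl1, Loxl3, Serpinh1, Bmp1 and Pcolce. Loxl3, under 6 there, was at least 1.33-fold lower and so is not shown to be 2-fold apart. By role the medians there were -2.79 for fibrillar collagens, -2.08 for crosslinking oxidases, -1.11 for prolyl 4-hydroxylases and 0.22 for type IV collagen. Adipocyte markers had a summed level of 15.31 (log2) on this array and of 6.83 to 10.78 on the others, and their part in these values was not tested.

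In differentiated chondrocytes 11 genes were higher and 0 lower, against 6.73% and 3.1% of all genes, with a median of 0.92. The 11 were Col1a1 (2.52), Col1a2 (1.31), Col3a1 (2.32), Col5a2 (1.28), Col7a1 (1.63), Col8a1 (1.53), Col8a2 (3.38), Col15a1 (2.92), P4ha2 (1.19), P4ha3 (1.87, at least 2.32-fold) and Loxl3 (1.77). The summed level of the osteoblast markers was 13.69 (log2) there and between 7.06 and 10.25 on the other arrays, and its part in these values was not tested. In differentiated osteocytes 2 genes were higher (Col8a2 and P4ha2) and 2 lower (Col1a2 and Col5a2), against 4.45% and 2.48%. The median was -0.39, with 20 of 30 genes below the MSC mean on the array labelled osteocytes, where 2 of 4 osteoblast markers reached 6. The same number reached 6 on MSC p4 and in reprogrammed chondrocytes. Sp7 was at 8.58 in differentiated osteocytes and at 9.16 on both MSC arrays. Against MSC d0 alone, differentiated osteocytes had 3 genes higher and 6 lower, against 5.63% and 4.66% of all genes. Differentiated adipocytes then had 2 higher (Col4a1 and Col4a2) and 21 lower, against 12.2% and 15.9%, and differentiated chondrocytes 14 higher and 0 lower, against 9.37% and 6.97%.

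Fewer of these genes were apart from both MSC arrays in reprogrammed cells. In reprogrammed osteocytes 2 genes were higher (Col1a1 by 1.78 and P4ha3 by 1.53) and 0 lower, against 0.819% and 0.443% of all genes. P4ha3 was under 6 in MSCs, and its bound of at least 1.83-fold does not show 2-fold. In reprogrammed adipocytes 0 were higher and 3 lower (Col3a1 by -1.83, Col6a1 by -2.10 and Col6a2 by -2.43), against 0.144% and 0.875%. In reprogrammed chondrocytes 0 genes were higher and 0 lower, against 0.144% and 0.0111%. The medians were 0.23, -0.32 and 0.19. Against MSC p4 alone, the array of the same title letter, the counts were 8 higher and 2 lower for reprogrammed osteocytes, against 5.44% and 4.62% of all genes. They were 0 and 4 for reprogrammed adipocytes, against 0.21% and 1.43%, and 3 and 0 for reprogrammed chondrocytes, against 1.53% and 0.487%.

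Within a lineage the reprogrammed array stood above the differentiated one in adipocytes and osteocytes and below it in chondrocytes. In the adipocyte pair 17 genes were at least 2-fold higher in reprogrammed cells and 4 lower (Col4a1, Col6a1, Col6a2 and Col15a1), against 16.6% and 16.7% of all genes, with a median of 1.36. For Loxl3 (at least 1.82-fold) and Col15a1 (at least 1.22-fold), under 6 on the dimmer array, 2-fold is not shown. Col1a1 was at least 13.8-fold higher and Pcolce2 at least 6.35-fold, and Col8a1 differed by 3.78, Col1a2 by 3.66 and Col16a1 by 3.24. In the chondrocyte pair 0 were higher and 12 lower, against 8.51% and 10.8%, with a median of -0.85. Col8a2 (-2.59), Col3a1 (-2.12), Col1a1 (-2.06) and Col15a1 (-2.05) led them. In the osteocyte pair 10 were higher and 2 lower (Col8a2 by -1.22 and P4ha2 by -1.64), against 7.93% and 11.0%, with a median of 0.66. P4ha3 (at least 1.83-fold) and Loxl3 (at least 1.74-fold), among the 10, are not shown to be 2-fold apart. Col1a1 differed by 3.26 there, Col15a1 by 2.01 and Plod2 by 1.97.

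**Figure D4:**
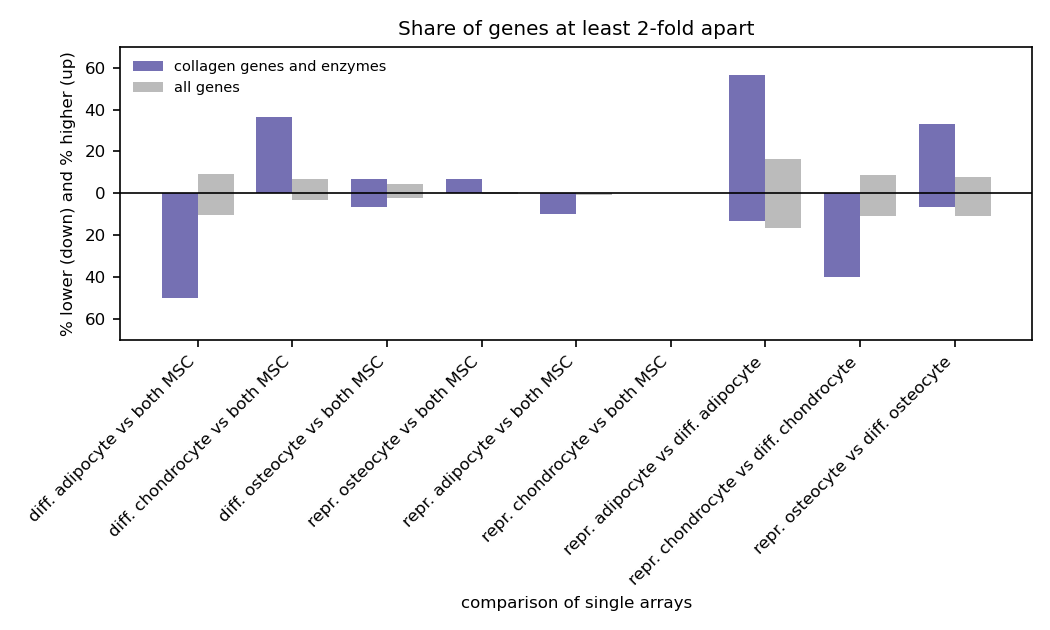
Share of the 30 collagen-related genes (purple) and of all 9033 genes (grey) at least 2-fold higher (upward bars) or lower (downward bars), in percent, for each array against both MSC arrays and for the reprogrammed against the differentiated array of each lineage. The purple bars point down for differentiated adipocytes (15 of 30) and up for differentiated chondrocytes (11 of 30). The pairs use the same differentiated arrays with the sign turned. Their purple bars point mostly up for adipocytes (17 higher, 4 lower) and osteocytes (10 and 2), and down for chondrocytes (0 and 12).

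The arrays of MSCs differed from each other for some of these genes. On MSC p4, 3 genes were at least 2-fold higher than on MSC d0 (Pcolce2, Col4a1 and Col4a2) and 6 lower (Col1a1, Col3a1, Col6a2, Col8a2, Col15a1 and Pcolce), against 6.38% and 8.05% of all genes. Pcolce2 was at least 10.4-fold higher on MSC p4. Col15a1 and Col8a2, under 6 there, were at least 3.08-fold and 3.07-fold lower. Col4a1 differed by 1.98, Col4a2 by 1.21 and Col6a2 by -1.86. Reprogrammed adipocytes, like MSC p4, were low for Col6a2, Col8a2 and Col15a1 and high for Pcolce2. Other arrays shared part of this. Pcolce2 was at 9.86 in differentiated and 9.11 in reprogrammed chondrocytes, and Col8a2 was lowest in differentiated adipocytes (4.29).

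**Figure D5:**
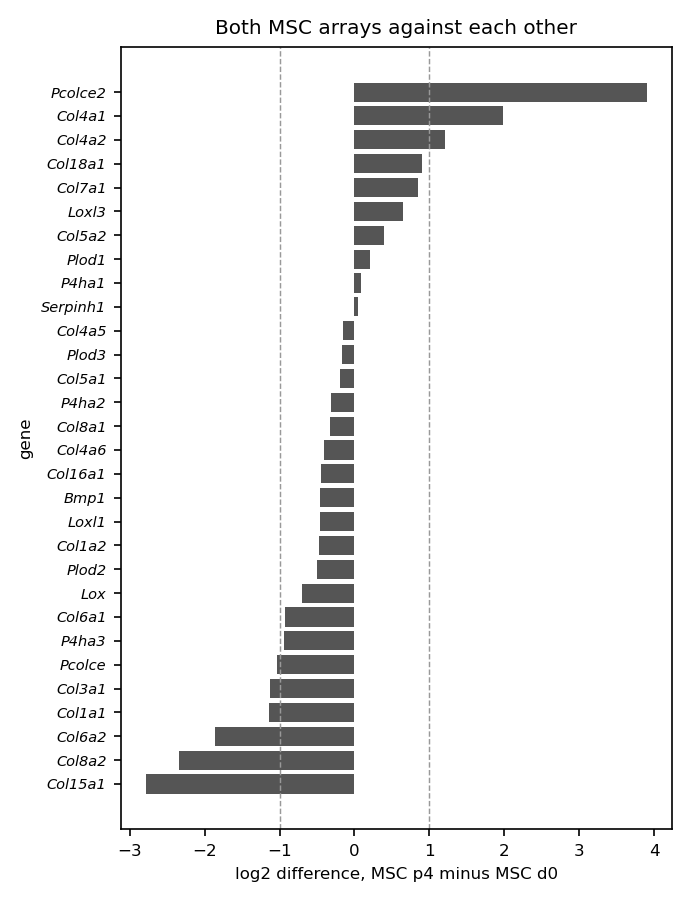
Log2 difference of MSC p4 minus MSC d0 for the 30 genes (horizontal bars, after the offset), with dashed lines at the 2-fold size rule. Pcolce2 (3.91), Col4a1 and Col4a2 lie beyond the upper line, and 6 genes from Pcolce (-1.03) to Col15a1 (-2.78) lie beyond the lower one.

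Likeness of pattern was measured against Col1a2 as a correlation over the 8 arrays, which share their normalization and among which 1 array can carry the value. It was 0.99 for Col8a1, 0.99 for Col5a1, 0.97 for Col1a1, 0.96 for Serpinh1, 0.95 for Loxl1 and 0.94 for Lox. Without differentiated adipocytes it was 0.95 for Col8a1, 0.93 for Col5a1, 0.89 for Col1a1, 0.82 for Serpinh1, 0.76 for Loxl1 and 0.71 for Lox. For Col16a1 it went from 0.87 to 0.07 and for Pcolce from 0.85 to 0.14, so their likeness rested on that array. Col4a1 correlated at 0.89 with Col4a2 and at 0.84 without differentiated adipocytes, and at -0.57 with Col1a2, or -0.07 without them. Further probes of the same genes reached the level on at least 2 arrays for 14 genes and 17 probes. Of these, 15 had the same direction as the shown probe in differentiated adipocytes and 12 in differentiated chondrocytes, and the median correlation with the shown probe was 0.87.

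Other genes of collagen biology were taken from lists outside the 47. In all 3 comparisons of states limma called 0 of 15 genes of folding, glycosylation and secretion, 0 of 4 collagen receptors, 0 of 4 collagen-degrading enzymes and 0 of 2 other collagens. Differentiated adipocytes were lowest for 12 of the 15 folding and secretion genes, against 26.3% of all genes. They were also lowest for 3 of 4 in both the receptor and the degradation list and for 1 of 2 other collagens. Differentiated chondrocytes were highest for 8 of the 15, against 16.5% of all genes. They were highest for 1 of 4 receptors, 4 of 4 degrading enzymes and 0 of 2 other collagens. Col2a1, the chain of cartilage collagen, stood at 6.83 and 8.76 in MSCs, 2.94, 9.15 and 4.38 in differentiated adipocytes, chondrocytes and osteocytes and 10.41, 10.05 and 9.74 in reprogrammed cells. All 3 reprogrammed values lay above every other array, with a log2 difference from differentiated cells of 3.77 (limma adjusted p = 0.117).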

How the data were processed

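Biotin-labelled cRNA of total RNA was hybridised to Illumina arrays, per the labels' protocols. For 45281 probes the authors deposited log2 values, and these were used. How they were corrected and normalized is not given in the sources used here; columns shared a median of 3.90 and a maximum of 15.05. A further table was left out, since its 16 value columns carry names found in no label. Symbols came from the platform annotation: 34885 probes had 1 symbol, 18 several and 10378 none, and 34807 were matched to RefSeq (GRCm38.p6) by Entrez identifier. Values were taken to log2(2 to the value, plus 16). Where a gene is under 6 on the dimmer side, "at least N-fold" sets the brighter mean against 6.32 (the offset added to a value of 6) or the dim value, whichever is higher.

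States were compared with limma 3.58.1 (R 4.3.3; lmFit and eBayes, 8 arrays, 5 residual degrees of freedom, two-sided), with Benjamini-Hochberg adjustment over 8308 genes at 6 on at least 2 arrays. Single arrays were compared by size over 9033 genes at 6 on at least 1. The number of arrays limits the precision. Arrays with d in the title had 4317 to 5204 probes at 0, and those with p 6815 to 7652. Each groups 4 arrays and is called an array set. Promoter windows are RefSeq's, and protein sequences were not used here. Alternatives were the offset, the filter, the mean of all probes, blocks for array set and lineage, a variance trend and leaving out each array.

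Members, lists and thresholds were chosen with earlier results of these data known. Values on all arrays were given for members that passed a contrast, the 5 largest differences per direction and contrast, the 2 of highest mean per role and those at least 4-fold apart between MSC arrays. Other genes named were markers, Col2a1 and genes chosen after their values were seen.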

Additional observations from a re-analysis of the deposited data

Results flagged for a closer look

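Several genes differed in opposite directions in different lineages, each by a log2 of at least 1. Levels under 6 enter as measured, and a value that rests on one is followed by its bound. The difference between lineages was not tested, since each lineage has 1 array per state. How many of all genes meet the same rule was not counted, so the counts of this section have no background beside them. Against both MSC arrays 7 genes were apart this way. Col1a1 differed by -5.04 in differentiated adipocytes, where it was under 6 (at least 11.6-fold lower), and by 2.52 in differentiated chondrocytes. Col1a2 differed by -4.17 in adipocytes, -1.42 in osteocytes and 1.31 in chondrocytes, and Col5a2 by -1.61, -1.36 and 1.28 in the same order. Col3a1 differed by -2.79 in adipocytes and 2.32 in chondrocytes, Col8a1 by -4.29 and 1.53, and Loxl3 by -2.18 and 1.77. Loxl3 was under 6 in adipocytes, and a bound of at least 1.33-fold lower leaves 2-fold unshown there. P4ha2 differed by -1.53 in adipocytes, 1.19 in chondrocytes and 1.21 in osteocytes.

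Reprogrammed minus differentiated arrays gave 9 such genes. In adipocytes, chondrocytes and osteocytes in turn, Col1a1 differed by 5.29, -2.06 and 3.26, Col1a2 by 3.66, -1.05 and 1.51, and Loxl3 by 2.62, -1.49 and 1.20. In the same order P4ha2 differed by 1.22, -1.22 and -1.64, Col6a2 by -2.25, -1.10 and 1.23, and Col15a1 by -1.02, -2.05 and 2.01. Col7a1 differed by 1.38 in adipocytes and -1.50 in chondrocytes, and Col8a1 by 3.78 and -1.54. P4ha3 differed by 1.50 in osteocytes and -1.55 in chondrocytes. Here Col1a1 was under 6 in differentiated adipocytes (at least 13.8-fold higher in reprogrammed ones). P4ha3 was under 6 on the dimmer array of both its pairs, with bounds of at least 2.32-fold in chondrocytes and 1.83-fold in osteocytes. Bounds of at least 1.82-fold and 1.74-fold for Loxl3 in adipocytes and osteocytes, and of at least 1.22-fold for Col15a1 in adipocytes, also leave 2-fold unshown.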

How the results depend on the processing

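The count of 0 genes called held in all 3 contrasts under every offset, filter, probe, array set block and trend alternative, and with lineage as a block, which was run for reprogrammed against differentiated cells alone. Leaving out 1 array gave 0 to 1 calls for reprogrammed against differentiated cells and 0 to 0 for the others. The calls were 1 without differentiated adipocytes (P4ha2, lower in reprogrammed cells) and 1 without differentiated chondrocytes (Col5a2, 1.87). They stood beside 209 and 37 of all 8308 genes. Medians of the set then ranged from -0.15 to 1.04 for reprogrammed minus differentiated, from -1.05 to 0.22 for differentiated minus MSC and from -0.28 to 0.28 for reprogrammed minus MSC. With the array set as a block, reprogrammed minus differentiated turned for many genes, among them Col8a2 (1.30), Col6a2 (1.15), Col15a1 (2.43) and Pcolce2 (-2.48). Differentiated minus MSC turned for Col15a1 (-0.48), Col6a2 (-0.76), P4ha3 (-0.15), Pcolce2 (1.37), Col7a1 (0.27) and Col18a1 (0.13). Leaving out 1 array, reprogrammed minus differentiated ranged from -0.47 to 2.43 for Col8a1 and -0.21 to 1.50 for Pcolce. Differentiated minus MSC then ranged from -3.26 to 0.52 for Col1a1, -2.56 to 0.35 for Col8a1 and -0.48 to 2.31 for Col15a1. The signs turned without differentiated adipocytes, and for Col15a1 without differentiated chondrocytes (-0.08) or MSC p4. Against the MSC array of the same title letter alone, genes at least 2-fold higher numbered 2 in differentiated adipocytes, 8 in reprogrammed osteocytes and 3 in reprogrammed chondrocytes, and lower ones 6 in differentiated osteocytes and 2 in reprogrammed osteocytes. With the mean of all probes, medians in differentiated adipocytes were -1.87 for fibrillar collagens, -0.026 for lysyl hydroxylases and -2.58 for Serpinh1, and in differentiated chondrocytes -0.027 for type VI collagen, which turned, and 0.10 for Serpinh1. Over all genes, calls for reprogrammed against differentiated cells went from 54 to 0 with the array set as a block, 7 with lineage as a block, 209 without differentiated adipocytes and 2 without any 1 reprogrammed array. For differentiated against MSC they went from 5 to between 0 and 51. The cause was not tested.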

Other observations

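Some genes whose products bind or degrade collagen, chosen after their values were seen, also differed widely between the arrays. Itga11, the α subunit of a collagen-binding integrin, stood at 7.77 and 5.02 on MSC d0 and p4, at 2.99, 12.13 and 6.27 in differentiated adipocytes, chondrocytes and osteocytes, and at 4.82, 7.27 and 6.69 in the reprogrammed cells. Mmp13, a collagenase of cartilage and bone, stood at 9.68 and 10.23 in MSCs, 10.55, 14.74 and 8.77 in differentiated and 7.0, 10.35 and 9.53 in reprogrammed cells. Ctsk, a collagen-degrading protease best known from osteoclasts, stood at 9.46 and 8.69 in MSCs, 5.67, 11.42 and 9.80 in differentiated and 8.07, 9.02 and 8.61 in reprogrammed cells. All 3 were highest in differentiated chondrocytes. Itga11 and Ctsk were lowest in differentiated adipocytes and Mmp13 in reprogrammed adipocytes. Sparc, a matrix protein that binds collagen, stood at 14.00 and 13.49 in MSCs, 11.71, 14.79 and 13.34 in differentiated and 13.80, 13.87 and 14.04 in reprogrammed cells, in the order of type I collagen for the differentiated arrays.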
